A study of Homo sapiens with 48 samples.

Results

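Heparan sulfate proteoglycans and the enzymes that build, sulfate and trim their chains were examined in PSN1 cells, a human pancreatic ductal adenocarcinoma line. The group holds 39 named genes of the 20241 in the table, selected by symbol. It comprised the glypicans, the syndecans, 2 basement membrane proteoglycans, the enzymes of heparan sulfate synthesis, 3 genes of extracellular editing, and 7 sulfotransferases of other glycans. The group was drawn up partly because the mRNAs of GPC6 and UST differed strongly between these same samples, so their values are given as a description with no test.

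RNAseq was performed on 3 groups of PSN1 cells with 3 replicates each. Parental cells were untreated and are labelled wild type. TalaR-M cells had acquired resistance to Talazoparib, a PARP inhibitor, and were kept in 50 nM of it, with 4 months given as the time. TalaR-DF cells were TalaR cells grown without the drug, for 4 weeks as the study describes them, and their labels give no treatment. The study reports that by then PSN1 TalaR cells had nearly regained the drug sensitivity of parental cells. The name TalaR thus gives the origin of TalaR-DF cells here, not a resistant state. All 3 groups were grown in RPMI1640 with 10% FBS. All groups come from 1 cell line, and no source used here says that the replicates were separate cultures, so p-values measure only the spread between these samples.

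Heparan sulfate is a long sugar chain attached to core proteins. Syndecans span the plasma membrane, glypicans are held on it by a lipid anchor, and perlecan (HSPG2) and agrin (AGRN) lie in the basement membrane. In the Golgi the chain is polymerised, its glucosamines are N-sulfated, part of its glucuronic acid is epimerised, and sulfate is added at the 2-O, 6-O and 3-O positions. The pattern of sulfate sets which growth factors the chain binds. Sulfatases outside the cell remove 6-O sulfate again, and heparanase cuts the chain. Chondroitin and dermatan sulfate are sister chains with sulfotransferases of their own. In pancreatic carcinoma, GPC1 and SDC1 are known as abundant surface proteoglycans.

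Levels are given as log2 CPM, where CPM are the reads of a gene per 1000000 reads of its library. The deposited values stop at 0, so that a gene listed at 0 had at most 1 CPM. Between 8387755 and 14973847 reads lay on genes above that limit, and 1 CPM was worth 6.97 to 14.54 reads. A fold change against a group listed at 0 is therefore a lower bound. Fewer cells that express a gene and less RNA per cell cannot be told apart in such bulk samples.

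One library stood apart. Across 10512 genes, TalaR-M replicate 2 correlated with the other TalaR-M replicates at a Pearson r of 0.780, while all other replicate pairs within a group reached at least 0.993. It was also the shallowest library. Its values were shifted by transcript length, with a median difference from TalaR-M replicates 1 and 3 of 1.35 on the log2 scale in the shortest 10% of transcripts and of -1.47 in the longest 10%. Among the members, HSPG2, with a canonical transcript of 14.3 kb, differed most, by -4.16, and NDST1 followed at -1.70. Not all members followed length: CHST12, with 16.0 kb, differed by 0.15, and EXTL2, with 2.8 kb, by -1.41. Called members and the counts of calls are therefore given with and without this library where it enters. Since 1 model serves all groups, it also enters the SE and p of TalaR-DF against parental cells.

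**Figure D1:**
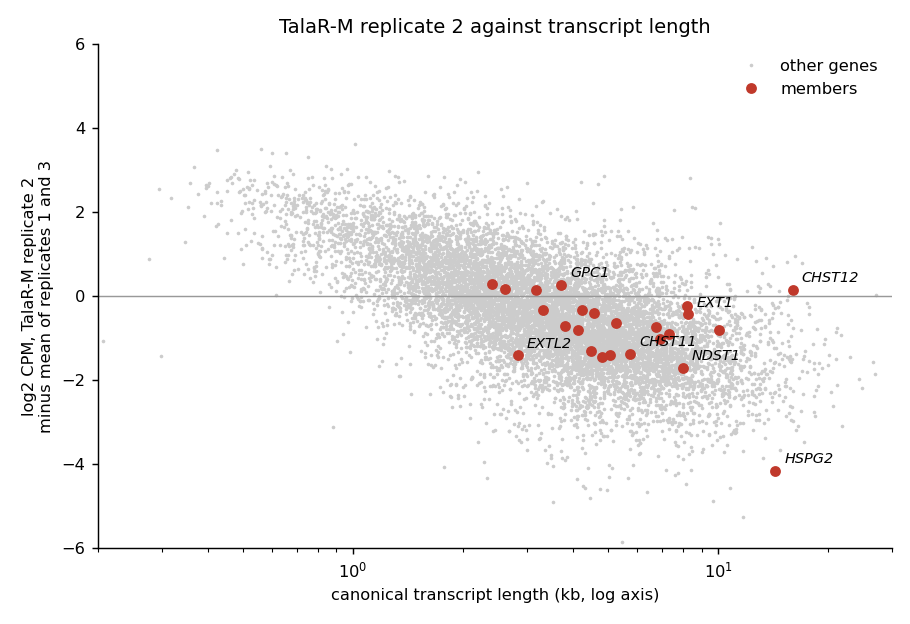
Difference in log2 CPM between TalaR-M replicate 2 and the mean of TalaR-M replicates 1 and 3 (vertical axis) against the length of the canonical transcript in kb (horizontal log axis), for genes above 2 log2 CPM; grey points are other genes and red points are 24 members. Longer transcripts tend to lie lower (Spearman rho of -0.64 over 10091 genes and -0.37 over the 24 members, described without a test), and HSPG2 lies lowest among the members at -4.16.

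The labelled cell type was checked by markers. Of 8 epithelial and carcinoma markers, 7 were above 0 in parental cells and 6 in TalaR-M and in TalaR-DF cells, while CDH1 was listed at 0 in all 9 libraries. Summed epithelial markers gave 1190 to 1251 CPM in parental, 1774 to 5811 in TalaR-M and 1014 to 1149 in TalaR-DF libraries. The value of 5811 was that of TalaR-M replicate 2, and the other TalaR-M libraries gave 1774 to 1926 CPM. Of 6 fibroblast markers, 5 were above 0 in each group, and their sum was 495 to 510 CPM in parental, 303 to 455 in TalaR-M (441 to 455 without replicate 2) and 101 to 110 in TalaR-DF libraries. These genes did not move together, with 2 higher and 4 lower calls in TalaR-M and 4 lower calls in TalaR-DF against parental cells. The shares of all tested genes called were 13.3% and 9.73%. COL1A1, a chain of collagen I, rose by 1.97 in TalaR-M cells, while COL1A2, its partner chain, was listed at 0 in all 3 TalaR-M libraries and was at least 233-fold lower than in parental cells. PDGFRB fell by 2.93 there, and DCN, listed at 0 in parental libraries, had 1.73, 1.45 and 1.47 log2 CPM in TalaR-M libraries. The endothelial markers summed to at most 30.9 CPM and those of leukocytes to at most 14.7 CPM, with VWF, CD3E, CD68 and CD79A listed at 0 throughout. These sums moved with the groups, and their part in the results below was not tested.

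The 3 genes with the widest differences in level are a core protein, a heparan sulfate 6-O-sulfotransferase and a dermatan and chondroitin 2-O-sulfotransferase. The 250 bases before their annotated starts are shown because GPC6 and HS6ST3 had a high level in parental cells and a low one in TalaR-M cells, and UST the reverse. The sequences are from RefSeq (GRCh38.p14, plus strand), at chr13:93226557-93226806 for GPC6, chr13:96089857-96090106 for HS6ST3 and chr6:148746780-148747029 for UST. Capitals mark CG dinucleotides.
GPC6: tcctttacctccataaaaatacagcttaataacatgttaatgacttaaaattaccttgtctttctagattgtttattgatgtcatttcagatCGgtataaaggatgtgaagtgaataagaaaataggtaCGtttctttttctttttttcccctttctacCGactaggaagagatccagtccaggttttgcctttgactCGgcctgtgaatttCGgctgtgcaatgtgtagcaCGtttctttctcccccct
HS6ST3: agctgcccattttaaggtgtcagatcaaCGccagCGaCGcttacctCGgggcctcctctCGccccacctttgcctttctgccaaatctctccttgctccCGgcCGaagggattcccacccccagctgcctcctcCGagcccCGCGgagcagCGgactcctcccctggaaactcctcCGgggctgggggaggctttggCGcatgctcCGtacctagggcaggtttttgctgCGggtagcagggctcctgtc
UST: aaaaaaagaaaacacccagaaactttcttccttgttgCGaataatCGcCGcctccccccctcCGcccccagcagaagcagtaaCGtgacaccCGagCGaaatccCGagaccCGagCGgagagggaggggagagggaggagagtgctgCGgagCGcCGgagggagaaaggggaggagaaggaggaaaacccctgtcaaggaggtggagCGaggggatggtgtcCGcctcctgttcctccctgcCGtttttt

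The GPC6 window is rich in A and T, with 37.6% G and C and 6 CG dinucleotides. The HS6ST3 window held 64.4% G and C with 15 CG, and the UST window 59.6% with 16, while the median of all 35116 promoter windows of this length was 58% and 11. The windows were also searched for the 6-base E-box CAGGTG and its reverse complement CACCTG, a motif that SNAIL family factors are known to bind, which the study concerns. None of the 3 windows held these letters, against 17.5% of all promoter windows. Counted by gene, 5 of the 25 tested members with a promoter entry (20%) held them in at least 1 window. A share of genes and a share of windows are not like measures, since a gene can have more than 1 window. A match or its lack describes these letters alone.

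Detection split the families. Of the 39 members, 29 were above 0 in at least 3 libraries and were tested, as were 12471 genes in all. At 0 in all 9 libraries were GPC3, GPC4, GPC5, NDST2, NDST4, HS3ST2, HS3ST4, EXTL1 and SULF1, and HS6ST2 reached 0.05 in 1 TalaR-DF library. So GPC1, GPC2 and GPC6 were measured of 6 glypicans, NDST1 and NDST3 of the N-deacetylase/N-sulfotransferases, and SULF2 alone of the 2 extracellular sulfatases. NDST2 is covered over 98.5% of its length by another protein-coding gene on the same strand in GENCODE, and HS2ST1 over 59.9%, so that reads of both could be split or lost in counting.

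Tests were made with limma across all 12471 genes in one model, and members were called where they differed 2-fold or more with a p under 0.05 after Benjamini-Hochberg adjustment. In TalaR-M against parental cells, 7 of the 27 tested members other than GPC6 and UST were called, 4 higher (SDC1, SDC2, HPSE, CHST3) and 3 lower (HS6ST3, GLCE, CHST11). Of all genes, 13.3% were called in this comparison, 5.53% higher and 7.72% lower. In TalaR-DF against parental cells 6 were called, with HPSE and HS3ST1 higher and SDC1, HS6ST3, SULF2 and CHST11 lower, against 9.73% of all genes, 2.25% higher and 7.49% lower. In TalaR-M against TalaR-DF cells 5 were called, with SDC1, SDC2, SULF2 and HPSE higher and HS6ST3 lower in TalaR-M, against 6.93% of all genes, 5.29% higher and 1.64% lower. The median log2 fold change of these 27 members was -0.10, -0.14 and 0.17 in the 3 comparisons, and that of all genes was -0.09, 0.01 and -0.09. Without TalaR-M replicate 2 the members' medians were 0.14, -0.14 and 0.32, so that the first turned its sign, and those of all genes were 0.01, 0.01 and -0.02. The members were chosen with results of these samples known and had to pass the filter, so nothing is read from these shares. Without TalaR-M replicate 2 the counts were 5, 6 and 5, against 13.9%, 11.4% and 8.36% of all genes. The first 2 comparisons share the parental libraries.

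**Figure D2:**
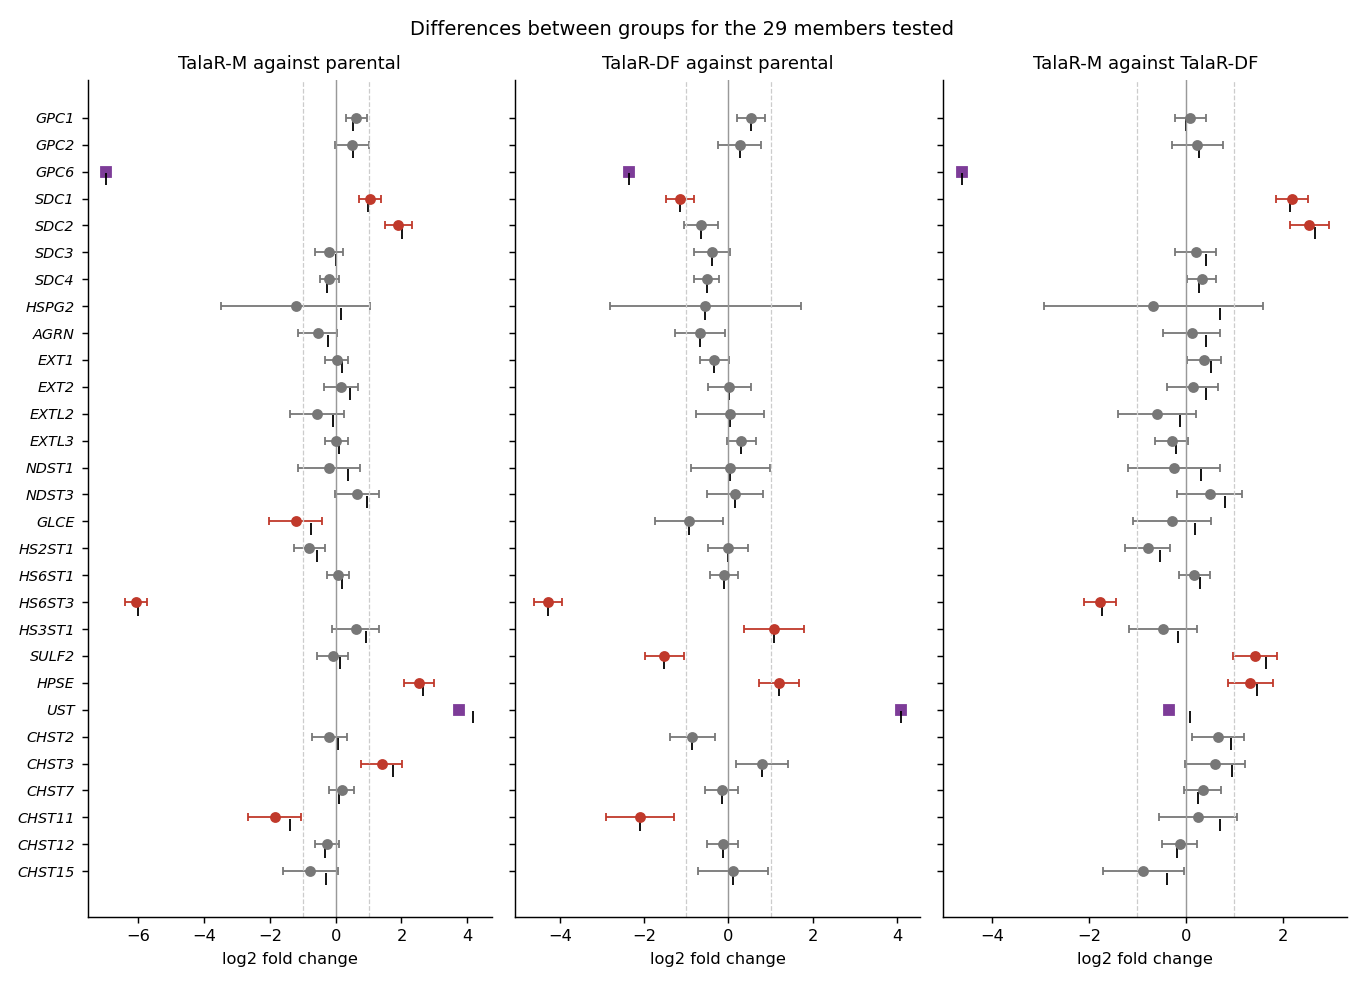
Log2 fold change (horizontal axis) of the 29 members tested (vertical axis) in the 3 comparisons; circles are limma estimates with 95% confidence intervals, red where called, purple squares are GPC6 and UST, shown without an interval, black ticks are the estimates without TalaR-M replicate 2, and dashed lines mark a 2-fold change. HS6ST3 lies at -6.07 and -4.29 against parental cells, SDC2 turns from 1.90 in TalaR-M to -0.65 in TalaR-DF cells, and the HSPG2 interval in TalaR-M against parental cells spans -3.49 to 1.05.

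Among the cell surface cores, GPC6 was listed at 0 in TalaR-M cells while GPC1 had a high level in every library. GPC6 is a glypican known from the growth of bone. GPC6 had 6.996, 7.003 and 6.956 log2 CPM in the parental libraries, was listed at 0 in all 3 TalaR-M libraries, and had 4.57, 4.62 and 4.69 in the TalaR-DF libraries. The 3 groups did not overlap, with TalaR-DF between the others. These levels rest on 1637 to 1875 reads in each parental library and 327 to 344 in each TalaR-DF library. GPC6 was thus at least 127-fold lower in TalaR-M than in parental cells and at least 24.7-fold lower than in TalaR-DF cells, and it was 5.12-fold lower in TalaR-DF than in parental cells.

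GPC1, the main glypican of pancreatic carcinoma cells, had 7.78, 7.63 and 7.83 log2 CPM in parental, 8.32, 8.56 and 8.25 in TalaR-M, and 8.45, 8.23 and 8.17 in TalaR-DF libraries. Parental libraries lay below all others, but the differences of 0.63 ± 0.14 (SE, adjusted p = 0.0142, limma) and 0.54 ± 0.14 (adjusted p = 0.0327, limma) were under 2-fold and were not called. The first was 0.54 without TalaR-M replicate 2. GPC2 stayed near the limit, at 0 to 0.86 log2 CPM in all libraries. Per kb of canonical transcript, GPC6 made up 22.2% to 25.1% of glypican mRNA in parental, none above the limit in TalaR-M, and 3.405% to 4.496% in TalaR-DF libraries. The glypican sum was 71.8 to 78.6 CPM per kb in parental, 82.5 to 102 in TalaR-M and 80.9 to 97.8 in TalaR-DF libraries.

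The syndecans SDC1 and SDC2 were highest in TalaR-M and lowest in TalaR-DF cells. SDC1, the epithelial syndecan, had 3.80, 3.66 and 3.56 log2 CPM in parental, 4.74, 4.82 and 4.61 in TalaR-M, and 2.55, 2.41 and 2.64 in TalaR-DF libraries. No library of one group overlapped another group. SDC1 rose by 1.04 ± 0.14 (log2, SE) in TalaR-M cells (adjusted p = 0.00129, limma) and fell by 1.14 ± 0.14 in TalaR-DF cells (adjusted p = 0.000937, limma). Without TalaR-M replicate 2 the difference was 0.996, just under the 2-fold threshold, and the call was lost.

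SDC2, a syndecan of mesenchymal cells, had 3.75, 3.68 and 3.29 log2 CPM in parental, 5.61, 5.25 and 5.57 in TalaR-M, and 2.84, 2.97 and 2.97 in TalaR-DF libraries. It rose by 1.90 ± 0.18 in TalaR-M cells (adjusted p = 0.000131, limma), and the difference of -0.65 ± 0.18 in TalaR-DF cells (adjusted p = 0.0378, limma) was under 2-fold. TalaR-M exceeded TalaR-DF cells by 2.19 ± 0.14 for SDC1 (adjusted p = 6.57e-05, limma) and by 2.55 ± 0.18 for SDC2 (adjusted p = 8.80e-05, limma). With TalaR-M replicate 2 left out, SDC2 was 2.02 higher in TalaR-M than parental cells, and the differences from TalaR-DF cells were 2.14 for SDC1 and 2.66 for SDC2, and these 3 were called. SDC3, a neural syndecan, had 5.09 to 5.79 log2 CPM over all libraries, and neither it nor SDC4, a component of focal adhesions, was called in any comparison. SDC4 had 5.78 to 5.88 log2 CPM in parental and 5.20 to 5.37 in TalaR-DF libraries, a difference of -0.52 ± 0.13 (adjusted p = 0.0254, limma).

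Per kb of transcript, SDC2 made up 7.73% to 9.97% of syndecan mRNA in parental, 24.3% to 29.5% in TalaR-M and 7.87% to 9.36% in TalaR-DF libraries. SDC4 held the largest share in every library, from 34.7% to 57.4%. The syndecan sum was 38.3 to 40.7 CPM per kb in parental, 47.4 to 53.2 in TalaR-M and 25.4 to 27.8 in TalaR-DF libraries, and these ranges did not overlap.

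**Figure D3:**
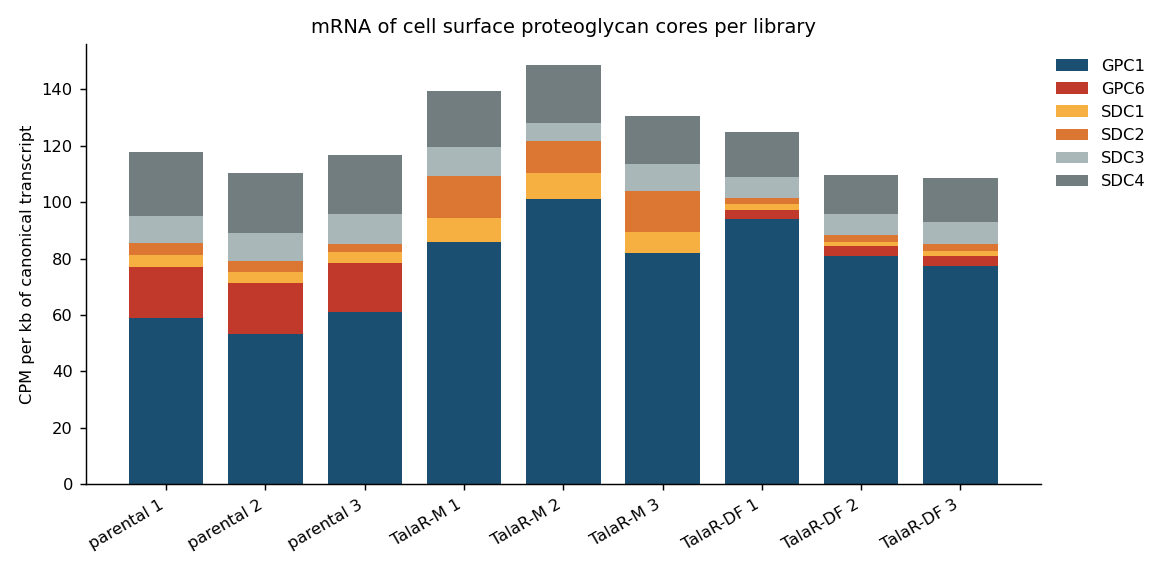
mRNA of 6 glypicans and syndecans per PSN1 library (horizontal axis) in CPM per kb of canonical transcript (vertical axis, stacked bars from 0, 1 bar per library; GPC2 is left out for its low level, and genes at 0 for all libraries are not drawn). GPC1 forms the largest block in all 9 bars, GPC6 is missing from the TalaR-M bars, and the SDC2 block is tallest there.

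The basement membrane proteoglycans were not called. AGRN had 8.72 to 8.80 log2 CPM in parental, 7.61 to 8.60 in TalaR-M and 7.82 to 8.27 in TalaR-DF libraries. Its difference from parental cells was -0.55 ± 0.26 in TalaR-M (adjusted p = 0.158, limma), or -0.25 without TalaR-M replicate 2. In TalaR-DF cells it was -0.67 ± 0.26 (adjusted p = 0.122, limma). With that replicate left out of the shared model it was -0.67 ± 0.10 (adjusted p = 0.000119, limma), under 2-fold. HSPG2 had 7.20, 7.10 and 7.16 log2 CPM in parental, 7.13, 3.16 and 7.51 in TalaR-M, and 6.44, 6.98 and 6.40 in TalaR-DF libraries. The apparent fall of HSPG2 in TalaR-M cells rests on 1 library. Its difference from parental cells was -1.22 ± 0.99 (adjusted p = 0.383, limma) with TalaR-M replicate 2 and 0.17 without it. All TalaR-DF libraries lay below the parental ones, with a difference of -0.54 ± 0.99 (adjusted p = 0.806, limma). With that replicate left out of the shared model it was -0.54 ± 0.14 (adjusted p = 0.00470, limma), under 2-fold.

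Chain polymerisation showed no called member. EXT1 and EXT2, which together form the heparan sulfate polymerase, differed from parental cells by 0.04 ± 0.15 and 0.16 ± 0.23 in TalaR-M and by -0.33 ± 0.15 and 0.03 ± 0.23 in TalaR-DF cells. Without TalaR-M replicate 2 the differences in TalaR-M cells were 0.18 ± 0.07 and 0.43 ± 0.09 (adjusted p = 0.046 and 0.00102, limma). In TalaR-DF cells they were then -0.33 ± 0.06 and 0.03 ± 0.08 (adjusted p = 0.000687 and 0.790, limma). All were under 2-fold. EXT1 in TalaR-DF libraries lay below all parental libraries. EXT1 had 7.36 to 8.01 and EXT2 6.26 to 7.17 log2 CPM over all libraries. With all libraries, the 95% intervals of the 4 differences lay between -0.68 and 0.68. EXTL3, which adds the first glucosamine of the chain, had 5.03 to 5.62 log2 CPM in all libraries. EXTL2, a related transferase, had 5.12 to 5.29 in the parental and 5.20 to 5.28 in the TalaR-DF libraries, but 3.71 in TalaR-M replicate 2. NDST1, the N-deacetylase/N-sulfotransferase with the highest listed level, had 7.13 to 7.17 log2 CPM in parental, 7.596, 5.81 and 7.42 in TalaR-M, and 7.13 to 7.24 in TalaR-DF libraries. Reads of NDST2 could have been lost in counting, so their ranking in these cells is not known. TalaR-M replicates 1 and 3 lay above all parental and TalaR-DF libraries, and the difference from parental cells was -0.20 with replicate 2 and 0.37 without it (adjusted p = 0.000509, limma), under 2-fold. NDST3 stayed near the limit, at 0 in all parental libraries and at 1.28, 0.01 and 0.65 in TalaR-M libraries.

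Of the later modifying enzymes, the 6-O-sulfotransferase HS6ST3 differed most. HS6ST3 had 6.21, 6.12 and 6.16 log2 CPM in parental libraries. It had 0.29, 0.00 and 0.00 in TalaR-M libraries, replicate 2 being at the limit, and 1.89, 1.97 and 1.76 in TalaR-DF libraries. The groups did not overlap, and TalaR-DF libraries lay nearer to TalaR-M than to parental ones. HS6ST3 fell by 6.07 ± 0.14 in TalaR-M cells (adjusted p = 1.02e-07, limma) and by 4.29 ± 0.14 in TalaR-DF cells (adjusted p = 6.14e-07, limma), and TalaR-M lay 1.78 ± 0.14 below TalaR-DF (adjusted p = 0.000166, limma). It rests on 944 to 1090 reads in each parental library, on 18 and 13 reads in TalaR-M replicates 1 and 3, and on 42 to 53 in each TalaR-DF library. The fall in TalaR-M cells is thus limited by the lowest value the table can hold. With replicate 2 left out, the differences of TalaR-M cells were -6.02 from parental and -1.73 from TalaR-DF cells, both called. TalaR-M against TalaR-DF was called in all but the 2 settings that added a pseudocount.

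The related enzyme HS6ST1 was not called, at 5.64 to 6.07 log2 CPM in all 9 libraries, with intervals of -0.25 to 0.39 in TalaR-M and -0.43 to 0.22 in TalaR-DF against parental cells. Per kb of transcript, HS6ST1 averaged 14.0 CPM and HS6ST3 8.40 CPM in parental libraries. In TalaR-M libraries HS6ST1 held 12.7 to 15.9 CPM per kb and HS6ST3 at most 0.143.

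GLCE, the epimerase that makes iduronic acid, had 6.26, 6.21 and 6.24 log2 CPM in parental, 5.52, 4.08 and 5.46 in TalaR-M, and 5.32, 5.16 and 5.43 in TalaR-DF libraries. All TalaR libraries lay below all parental ones. GLCE fell by 1.22 ± 0.35 in TalaR-M cells (adjusted p = 0.0385, limma), but by 0.75 without TalaR-M replicate 2, which is not called. Leaving out any parental or TalaR-DF library also ended this call. The difference in TalaR-DF cells was -0.93 ± 0.35 (adjusted p = 0.112, limma). With TalaR-M replicate 2 left out of the shared model it was -0.93 ± 0.07 (adjusted p = 6.69e-07, limma), still under 2-fold.

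HS2ST1, the 2-O-sulfotransferase, had 6.73 to 6.79 log2 CPM in parental, 5.48 to 6.25 in TalaR-M and 6.65 to 6.81 in TalaR-DF libraries, and the difference of -0.80 ± 0.20 in TalaR-M cells (adjusted p = 0.0239, limma) was under 2-fold, as was that of -0.55 without replicate 2. HS3ST1, a 3-O-sulfotransferase that makes the antithrombin-binding site, had 0, 0.01 and 0 log2 CPM in parental, 0.68, 0 and 1.14 in TalaR-M, and 1.497, 0.613 and 1.142 in TalaR-DF libraries. It was called higher in TalaR-DF than parental cells (1.08 ± 0.31, adjusted p = 0.0439, limma). That call was lost in 10 of 17 alternatives, and its parental values lie at the limit.

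**Figure D4:**
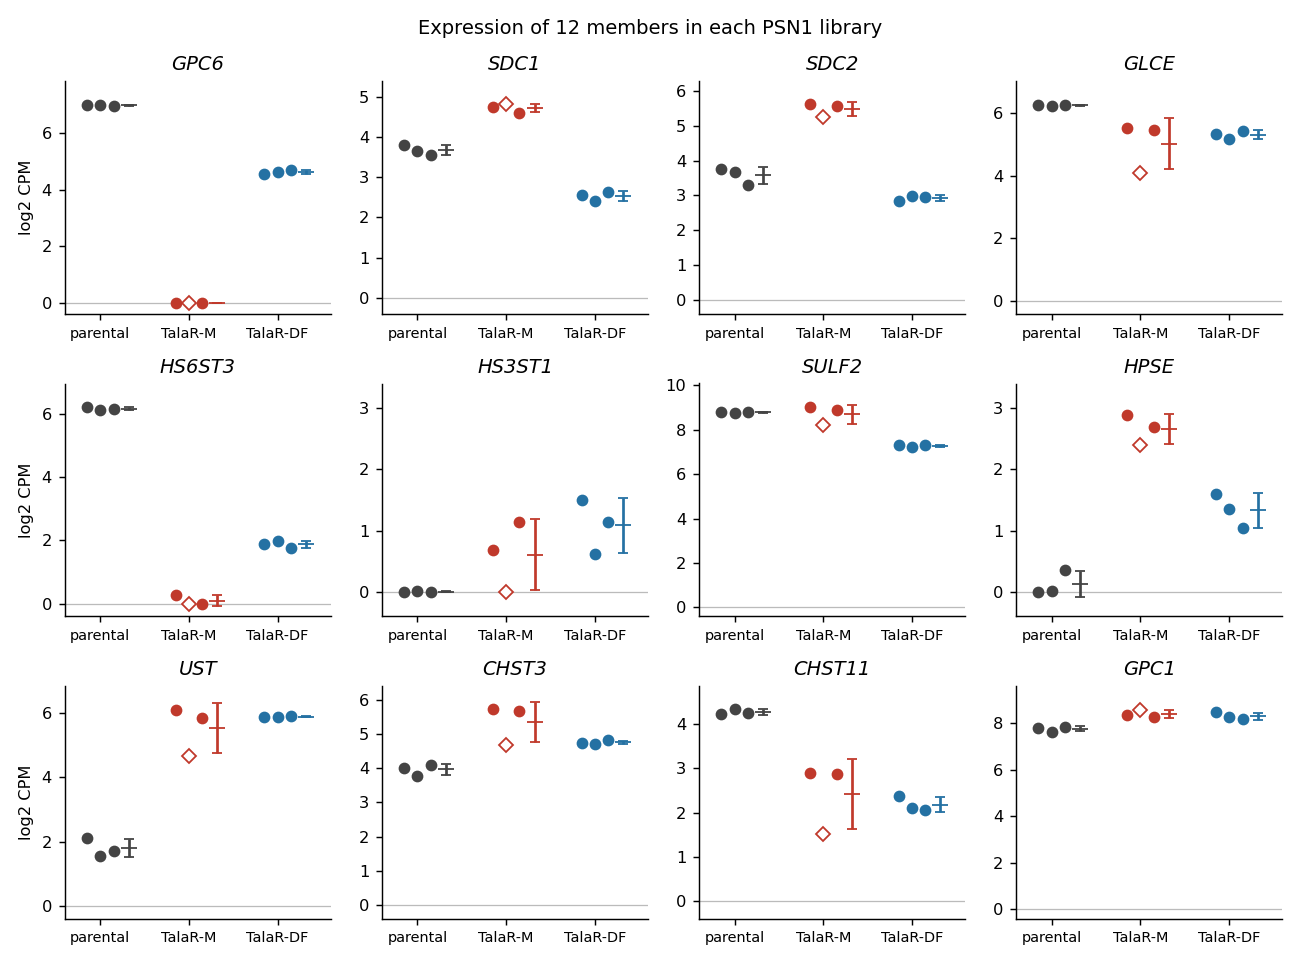
Log2 CPM (vertical axis, scaled per panel, 0 being at most 1 CPM) of 12 members in the 9 PSN1 libraries by group (horizontal axis); points are libraries, the open diamond is TalaR-M replicate 2, and the bars beside them are mean ± SD of 3 libraries. GPC6 lies at 0 in TalaR-M, UST lies above 4.6 in all TalaR libraries, and SULF2 lies between 7.22 and 7.30 in TalaR-DF libraries.

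Of the 2 expressed editing genes, SULF2 fell and HPSE rose in TalaR-DF against parental cells, HPSE alone rose in TalaR-M against parental cells, and both were higher in TalaR-M than TalaR-DF cells. SULF2, the sulfatase that removes 6-O sulfate from secreted and surface chains, was the member with the highest level per kb in parental cells, at 116 CPM per kb, above AGRN at 59.3 and GPC1 at 57.9. SULF2 had 8.81, 8.77 and 8.78 log2 CPM in parental, 8.99, 8.21 and 8.87 in TalaR-M, and 7.29, 7.22 and 7.30 in TalaR-DF libraries. TalaR-DF libraries lay below all others, while TalaR-M libraries surrounded the parental ones. SULF2 fell by 1.52 ± 0.20 in TalaR-DF cells (adjusted p = 0.00115, limma), differed by -0.10 ± 0.20 in TalaR-M cells (adjusted p = 0.736, limma), and was 1.42 ± 0.20 higher in TalaR-M than TalaR-DF cells (adjusted p = 0.00286, limma). That difference was 1.66 without TalaR-M replicate 2 and the one from parental cells 0.14, and the first was called.

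HPSE, the heparanase that cuts heparan sulfate, had 0, 0.01 and 0.36 log2 CPM in parental, 2.89, 2.39 and 2.70 in TalaR-M, and 1.60, 1.35 and 1.03 in TalaR-DF libraries. The groups did not overlap. HPSE rose by 2.53 ± 0.20 in TalaR-M cells (adjusted p = 5.24e-05, limma) and by 1.20 ± 0.20 in TalaR-DF cells (adjusted p = 0.00420, limma), and TalaR-M exceeded TalaR-DF cells by 1.33 ± 0.20 (adjusted p = 0.00437, limma). Parental levels lie at the limit, so that these differences from parental cells depend on it, and an added pseudocount of 8 CPM ended all 3 calls and one of 0.1 CPM both calls with TalaR-DF cells. HPSE was, without TalaR-M replicate 2, 2.67 higher in TalaR-M than parental and 1.46 higher than TalaR-DF cells, both called.

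Among the sulfotransferases of other glycans, UST had a higher level in all TalaR libraries. UST, which adds 2-O sulfate to the uronic acid of dermatan and chondroitin sulfate, had 2.10, 1.56 and 1.70 log2 CPM in parental libraries. It had 6.10, 4.65 and 5.83 in TalaR-M and 5.88, 5.88 and 5.90 in TalaR-DF libraries. All TalaR libraries lay above all parental ones, and the TalaR-DF libraries fell within the range of the TalaR-M libraries. UST rests on 40 to 62 reads in each parental library, on 189 in TalaR-M replicate 2 and on 756 to 1080 in each other TalaR library. The difference from parental cells was 3.74 (13.4-fold) in TalaR-M, or 4.18 without TalaR-M replicate 2, and 4.10 (17.1-fold) in TalaR-DF cells.

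CHST3, which adds 6-O sulfate to chondroitin, had 4.02, 3.79 and 4.09 log2 CPM in parental, 5.72, 4.68 and 5.69 in TalaR-M, and 4.74, 4.72 and 4.82 in TalaR-DF libraries. CHST3 rose by 1.40 ± 0.27 in TalaR-M cells (adjusted p = 0.00724, limma), while the difference of 0.79 ± 0.27 in TalaR-DF cells (adjusted p = 0.0841, limma) was not called. With TalaR-M replicate 2 left out of the shared model, the TalaR-DF difference was 0.79 ± 0.09 (adjusted p = 1.26e-05, limma), still under 2-fold. CHST11, which adds 4-O sulfate to chondroitin, had 4.24, 4.35 and 4.26 log2 CPM in parental, 2.90, 1.52 and 2.87 in TalaR-M, and 2.39, 2.10 and 2.06 in TalaR-DF libraries. CHST11 fell by 1.85 ± 0.35 in TalaR-M cells (adjusted p = 0.00621, limma) and by 2.10 ± 0.35 in TalaR-DF cells (adjusted p = 0.00405, limma). The differences from parental cells without TalaR-M replicate 2 were 1.74 for CHST3 and -1.39 for CHST11, both called.

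CHST3 and CHST11 therefore lay on opposite sides of parental cells in the TalaR-M libraries. CHST2, CHST7, CHST12 and CHST15 were not called in any comparison. CHST2 and CHST7 sulfate N-acetylglucosamine or chondroitin, and CHST12 is a further chondroitin 4-O-sulfotransferase. Over all libraries CHST7 had 2.92 to 3.68 and CHST12 3.91 to 4.42 log2 CPM. CHST15, which makes disulfated chondroitin, had 5.38, 3.86 and 5.25 log2 CPM in TalaR-M libraries against 5.495 to 5.704 in parental ones, and CHST2 differed by -0.86 ± 0.23 in TalaR-DF cells (adjusted p = 0.0352, limma).

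GPC6 and HS6ST3 lie on the same strand of chromosome 13 (hg38). GPC6 has 9 exons at 93226807-94408020, and HS6ST3 has 2 at 96090107-96839562, a gap of 1.68 Mb. GPC5, which lies 0.353 Mb before GPC6, was listed at 0 in all libraries. The 7 tested genes between GPC6 and HS6ST3, examined after the members' values were seen, stayed expressed in TalaR-M cells. Their differences from parental cells ran from -1.66 to -0.22 in TalaR-M, from -1.68 to 0.07 without TalaR-M replicate 2, and from -0.92 to 0.50 in TalaR-DF cells. CLDN10, a tight junction claudin, was the lowest of them in each of these 3 series. UST lies on chromosome 6 at 148747030-149076990 with 8 exons, and its 21 tested neighbours within 3 Mb differed from parental cells by -2.09 to 1.19 in TalaR-M (-1.38 to 1.17 without replicate 2) and by -2.61 to 1.39 in TalaR-DF cells.

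**Figure D5:**
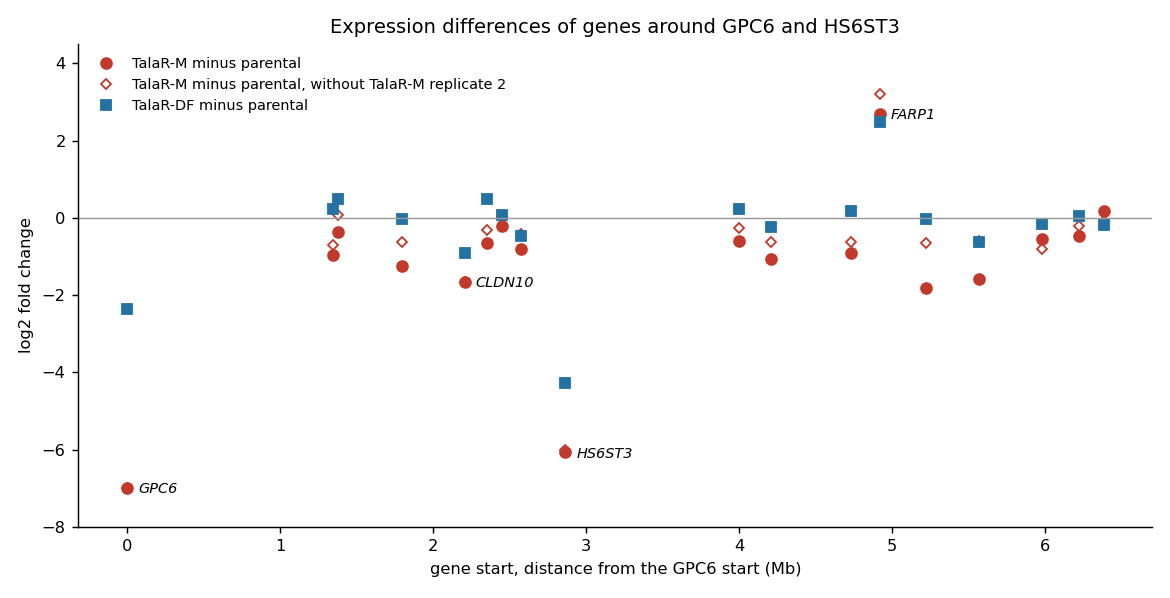
Log2 fold change against parental cells (vertical axis) of the tested genes around GPC6 and HS6ST3, by the distance of their annotated start from that of GPC6 in Mb (horizontal axis); red circles are TalaR-M, open diamonds TalaR-M without replicate 2, and blue squares TalaR-DF. GPC6 at -6.98 and HS6ST3 at -6.07 stand below the 7 genes between them, none of which is under -1.68, and FARP1 lies at 2.69.

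Genes around the same pathway were examined as 78 genes in 8 lists, of which 58 were tested. In TalaR-M against parental cells 14 were called, 5 higher and 9 lower. In TalaR-DF against parental cells 11 were called, 1 higher and 10 lower, and in TalaR-M against TalaR-DF cells 12 were called, 9 higher and 3 lower. Their medians were -0.01, -0.33 and 0.15. Of all tested genes 13.3%, 9.73% and 6.93% were called, as above. Without TalaR-M replicate 2 the counts were 17, 13 and 16, against 13.9%, 11.4% and 8.36% of all tested genes.

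Of all tested genes, 13.3% were called in TalaR-M against parental cells, 9.73% in TalaR-DF against parental cells and 6.93% in TalaR-M against TalaR-DF cells. The counts of supply and linker genes rest on few genes, and nothing is read from them. Of 10 genes for the sulfate donor and sugar precursors, PAPSS2 alone was called. PAPSS2, which makes the sulfate donor PAPS, had 3.55 to 3.74 log2 CPM in parental, 6.62, 5.06 and 6.38 in TalaR-M, and 4.27 to 4.46 in TalaR-DF libraries. PAPSS2 rose by 2.37 in TalaR-M cells (adjusted p = 0.00215, limma), or by 2.85 without TalaR-M replicate 2. Of 6 tested genes for the linker sugars, PXYLP1, a xylose phosphatase, alone was called, falling by 1.62 in TalaR-M cells (adjusted p = 0.00743, limma), and dropped by 1.23 without TalaR-M replicate 2. It was also called lower in TalaR-M than TalaR-DF cells (-1.17, adjusted p = 0.0495, limma), but not without that replicate (-0.78). The 4 other heparan 3-O-sulfotransferases were listed at 0 in every library.

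Of the 9 tested chondroitin and dermatan chain enzymes, 1 was called in TalaR-M and 1 in TalaR-DF against parental cells, both lower. The shares of all tested genes called were 13.3% and 9.73%. CHSY1, a chondroitin synthase, fell by 1.46 in TalaR-M cells (adjusted p = 0.0414, limma), a call lost without TalaR-M replicate 2, when the difference was -0.87. DSE, the epimerase of dermatan sulfate, fell by 2.44 in TalaR-DF cells (adjusted p = 0.00248, limma). CSGALNACT1, which starts the chondroitin chain, differed by -1.17 in TalaR-DF cells and was called there only with TalaR-M replicate 2 left out. DSE had 2.74 to 2.87 log2 CPM in parental, 2.76, 1.14 and 2.40 in TalaR-M, and 0.14 to 0.47 in TalaR-DF libraries. CHST6, which sulfates keratan sulfate, rose by 1.41 in TalaR-M cells (adjusted p = 0.00325, limma), from 0.28 to 0.77 log2 CPM in parental to 1.55 to 2.39 in TalaR-M libraries. Of 8 tested genes of lysosomal heparan sulfate breakdown, none was called in TalaR-M (1 lower without its replicate 2) and 1 was called lower in TalaR-DF against parental cells. The shares of all tested genes were again 13.3% (13.9% without that replicate) and 9.73%, and nothing is read from these small counts.

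Of 12 tested cores of other proteoglycans, 6 were called in TalaR-M against parental cells, 1 higher and 5 lower. In TalaR-DF against parental cells 4 were called, all lower. The shares of all tested genes called were 13.3% and 9.73%, or 13.9% and 11.4% without TalaR-M replicate 2. With that library left out the counts of these cores were 8, with 3 higher and 5 lower, and 5, with 1 higher and 4 lower. VCAN, the large chondroitin sulfate proteoglycan versican, then stood 2.11 above parental cells in TalaR-M and 1.36 in TalaR-DF cells, and its values with that library were 1.17 and 1.36, not called. CSPG4, a membrane chondroitin sulfate proteoglycan, had 3.87 to 3.96 log2 CPM in parental, 0.83 to 1.22 in TalaR-M and 0 to 0.31 in TalaR-DF libraries. CSPG4 fell by 2.85 in TalaR-M (adjusted p = 5.86e-06, limma) and by 3.81 in TalaR-DF cells (adjusted p = 1.59e-06, limma). LUM, the keratan sulfate proteoglycan lumican, fell by 3.50 in TalaR-M (adjusted p = 0.000144, limma) and by 1.78 in TalaR-DF cells (adjusted p = 0.00704, limma). TGFBR3, the betaglycan coreceptor of TGF-beta, fell by 1.96 in TalaR-M (adjusted p = 0.00292, limma) and by 1.42 in TalaR-DF cells (adjusted p = 0.0160, limma).

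Of 10 tested ligands and receptors that bind heparan sulfate, 2 rose and 2 fell in TalaR-M cells, and 1 rose and 4 fell in TalaR-DF cells. The shares of all tested genes called were 13.3% and 9.73%, or 13.9% and 11.4% without TalaR-M replicate 2. Without TalaR-M replicate 2, 3 fell in TalaR-M cells and the other counts were as before. FGF2, a growth factor that needs heparan sulfate to signal, had 3.74 to 3.89 log2 CPM in parental, 6.06, 4.22 and 5.95 in TalaR-M, and 5.22 to 5.49 in TalaR-DF libraries. FGF2 rose by 1.57 in TalaR-M (adjusted p = 0.0341, limma) and by 1.54 in TalaR-DF cells (adjusted p = 0.0429, limma). FGF1 fell by 1.70 in TalaR-DF cells (adjusted p = 0.000800, limma), and MDK, the heparin-binding factor midkine, fell by 1.80 there (adjusted p = 0.0149, limma). VEGFA, the angiogenic factor, fell by 1.96 in TalaR-M (adjusted p = 0.00432, limma) and by 1.32 in TalaR-DF cells (adjusted p = 0.0308, limma). LRP1, an endocytic receptor, fell by 2.39 in TalaR-M (adjusted p = 0.00349, limma) and by 3.24 in TalaR-DF cells (adjusted p = 0.000831, limma). The differences of TalaR-M from parental cells without replicate 2 were 2.17 for FGF2, -1.495 for VEGFA, -1.90 for LRP1, -2.92 for CSPG4, -3.09 for LUM, -1.75 for TGFBR3 and 1.49 for CHST6, each of them called.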

How the data were processed

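RNAseq values of PSN1 cells were used for 3 groups (parental, TalaR-M, TalaR-DF) with 3 replicates each. Per the labels, stranded poly(A) libraries were prepared. The authors deposited log2 values for 20241 genes. From the values themselves these are log2 CPM with a library-scaled prior count of 1 and values under 0 set to 0. The build is hg38 by the submitters' processing notes, and the aligner and counter are not given in the sources used here. The column names speak of maintaining and withdrawing, which was read as TalaR-M and TalaR-DF respectively. The other 39 samples of the series were not analysed here.

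Whole reads, recovered to within 0.01 for 100% of the values examined, served for depth only. Groups were compared by limma (version 3.58.1, R 4.3.3) in 1 model of 3 groups with a mean-variance trend, over genes above 0 in at least 3 libraries. A call needed a 2-fold difference and a p under 0.05 after Benjamini-Hochberg adjustment over all tested genes. With 3 against 3 libraries an exact permutation test cannot give a p under 0.1, so none was used. The test was tried on simulated counts in which 200 genes were changed, and it recovered 200 with 0 false calls. All simulated libraries had the same small spread, with none like TalaR-M replicate 2. The simulation therefore does not show how the test behaves with such a library. The design had foreseen values before the log; since log2 CPM were found, no pseudocount was added.

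All 39 members are named. Libraries are listed for GPC6, UST and members called in at least 1 comparison, and for up to 12 pathway genes with the largest called changes. The members and lists were chosen with earlier results of these data known. Positions and transcript lengths came from GENCODE 44 (GRCh38), matched by symbol for 39 of 39 members, and promoters from RefSeq. Lengths per kb use the canonical transcript, which may not be the one expressed. Figures were drawn with matplotlib 3.10.9.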

Additional observations from a re-analysis of the deposited data

How the results depend on the processing

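The 18 calls of members other than GPC6 and UST were recomputed under each alternative, and 10 of them were kept under every one. The number of members called in TalaR-M against parental cells was 7, with 5 to 7 when each library was left out in turn. Over all 12471 genes tested, 1653 were called, with 1298 to 2045 when each library was left out. In TalaR-DF against parental cells the number of members was 6, with 5 to 6 when each library was left out. It was 10 without a fold threshold and 3 with an added pseudocount of 8 CPM. Over all 12471 genes, 1214 were called, with 983 to 1417 when each library was left out and 426 with that pseudocount. The count over all genes without a fold threshold was not taken. In TalaR-M against TalaR-DF cells the number of members was 5, also when each library was left out, and 3 with a pseudocount of 0.1 or of 8 CPM. Over all 12471 genes, 864 were called, with 578 to 1043 when each library was left out. With the pseudocounts of 0.1 and 8 CPM, 900 and 272 of them were called. The calls of GLCE in TalaR-M and of HS3ST1 in TalaR-DF against parental cells were each lost in 10 alternatives. No called value changed its sign. The cause of these losses was not tested. Where a library was left out, the genes tested were kept the same. Rescaling by the median ratio moved the median difference of all genes by 0.11 in TalaR-M against parental and by 0.12 in TalaR-M against TalaR-DF cells, and by -0.03 in TalaR-DF against parental cells.

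Whether replicate numbers pair the samples could not be decided. The correlations of same-numbered deviations from the group mean ran from -0.009 to 0.081 for TalaR-M and parental libraries. They ran from -0.134 to 0.152 for TalaR-DF and parental, and from -0.417 to 0.217 for TalaR-M and TalaR-DF libraries. TalaR-M replicate 2 dominates the deviations of its group, so that a pairing with TalaR-M libraries could be hidden. With the replicate number as a block, 7, 6 and 5 members were called in the 3 comparisons, as without it. The limit of 1 CPM sets what can be seen of HPSE, HS3ST1, NDST3 and GPC2, and of GPC6 and HS6ST3 in TalaR-M cells.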
